A study of Mus musculus with 7 samples.

Results

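The S100 genes of mouse chromosome 3 were followed in F123 embryonic stem cells (ESCs) that had lost the distal super-enhancer of Sox2 on 1 or both alleles. S100 proteins are small calcium-binding proteins with a pair of EF-hand motifs, which is a helix-loop-helix fold that holds a calcium ion. They mostly act as dimers inside the cell, where calcium opens a surface that binds partners such as annexins, myosin and other cytoskeletal proteins. In textbook descriptions S100a4, S100a6, S100a10 and S100a11 are abundant in fibroblasts, epithelia and other differentiated, motile cells. The 7 members were chosen by name in the GENCODE M1 annotation (mm9) as S100a1, S100a4, S100a6, S100a10, S100a11, S100a13 and S100a16. They were picked because several of them were higher in the deletion clones of these same libraries, so their RNA levels are given as a description and not as a test. They are 7 of 13 S100 genes on chromosome 3, of 16 S100 genes in the annotation and of 31498 genes tested.

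F123 is a mouse ESC line from a cross of Mus musculus castaneus (CAST) with a 129 strain, so each gene has a CAST and a 129 copy. RNA was sequenced in the wild type (WT) line, in a clone lacking the enhancer on the 129 allele (CAST+/129-), in a clone lacking it on the CAST allele (CAST-/129+) and in a clone lacking it on both (CAST-/129-, the biallelic clone). H3K4me3, a histone mark of gene starts, and H3K27ac, a mark of active promoters and enhancers, were mapped by ChIP-seq in unedited F123 cells, and H3K27ac also in unedited J1 ESCs. Each of the 7 conditions was 1 library, and each mutant genotype was 1 clone made with CRISPR/Cas9. No difference below thus has a replicate check, and the genotype cannot be told apart from the clone. After transfection the cells had been put on puromycin-resistant MEF (mouse embryonic fibroblast) feeders and selected with puromycin. Before harvest, cells were passaged on gelatin without feeders.

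The RNA libraries held 7557984 to 33684661 distinct alignments, of which 5831199 to 24848422 lay on the sense strand of exonic bases belonging to 1 gene. WT was the deepest library and CAST-/129- the shallowest. Levels are FPKM, which is distinct alignments per kilobase of such exonic bases and per 1000000 alignments on all tested genes. As a check of the genotypes, Sox2 was at 174.7 FPKM in WT, 82.0 in CAST+/129-, 73.1 in CAST-/129+ and 7.40 in CAST-/129-. The 10 ESC markers were all detected in every library, with a summed level of 1864 FPKM in WT, 1715 and 1575 in the monoallelic clones and 1116 in CAST-/129-. In CAST-/129-, 5 of the 10 were lower by at least 3-fold after adding 4 to FPKM (Sox2, Klf4, Esrrb, Zfp42 and Nanog), against 0.511% of all genes tested. In bulk RNA, fewer cells of a type and less RNA per cell cannot be told apart.

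The members lay in 2 blocks on chromosome 3. S100a1, S100a13, S100a16, S100a4 and S100a6 spanned 103.4 kb (chr3:90314956-90418336), and S100a11 and S100a10 spanned 44.2 kb (chr3:93324410-93368565). The blocks were 2906 kb apart and lay 55.8 to 58.8 Mb from the start of Sox2 on the same chromosome. All 7 genes are protein-coding, and S100a1 alone is on the minus strand. S100a1 and S100a13 are divergent neighbours whose annotated starts leave 42 bp between them, so their promoter values are counts of nearly the same alignments.

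The 250 bases before the annotated start are shown for S100a4, which had the highest ratio to WT, and for S100a11 and S100a10, which had the most RNA in WT. They were read 5′ to 3′ from mm9, plus strand, and capitals mark every match to TATAAA (the TATA box), CCAAT (another promoter box), GGGCGG (the GC box) or TGANTCA (AP-1 motif, N being any base) on either strand. The 42 bases between S100a1 and S100a13, read on the plus strand, are shown as the stretch that both genes share, and held none of these motifs.
S100a4 (chr3:90407442-90407691): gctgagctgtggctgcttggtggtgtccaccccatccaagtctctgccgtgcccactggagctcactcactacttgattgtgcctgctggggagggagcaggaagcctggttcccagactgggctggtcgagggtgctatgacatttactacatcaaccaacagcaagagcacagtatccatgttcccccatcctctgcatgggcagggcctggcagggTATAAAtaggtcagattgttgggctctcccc
S100a11 (chr3:93324160-93324409): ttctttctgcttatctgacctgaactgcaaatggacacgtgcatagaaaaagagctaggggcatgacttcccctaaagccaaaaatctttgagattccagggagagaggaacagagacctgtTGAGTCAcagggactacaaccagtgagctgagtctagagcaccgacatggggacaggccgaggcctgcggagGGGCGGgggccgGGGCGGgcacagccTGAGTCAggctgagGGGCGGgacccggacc
S100a10 (chr3:93358752-93359001): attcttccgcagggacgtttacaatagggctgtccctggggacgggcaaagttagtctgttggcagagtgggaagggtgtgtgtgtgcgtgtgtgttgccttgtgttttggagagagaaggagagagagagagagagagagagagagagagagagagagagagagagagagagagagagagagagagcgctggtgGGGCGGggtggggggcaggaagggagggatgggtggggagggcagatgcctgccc
S100a1 to S100a13 (chr3:90318315-90318356): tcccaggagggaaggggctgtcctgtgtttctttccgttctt
The S100a4 window held 1 TATAAA, 31 to 26 bases before the start, and 2 CpG dinucleotides. The S100a11 window held 3 GGGCGG and 2 TGANTCA matches and 9 CpG, and the S100a10 window held 1 GGGCGG and 6 CpG. The median protein-coding gene had 8 CpG in a window of this length. Over 22345 such windows, TATAAA occurred in 12.3%, CCAAT in 35.0%, GGGCGG in 39.6% and TGANTCA in 6.01%. ACAAAG, a core of the HMG box motif that Sox proteins bind, occurred in 15.3% of all windows and in none of the windows of the 7 members, which says only that these letters were not there. The window of S100a6 is not shown because its RNA mostly began inside the annotated first exon: of 38 WT alignments on that exon of 333 bases, 0 started in its first 200 bases.

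In the RNA, S100a4 and S100a6 were far higher in every mutant clone than in WT, S100a11 and S100a10 started from higher levels and were higher by smaller ratios, and S100a13, S100a1 and S100a16 were below 20 FPKM in every library. The summed level of the 7 genes was 137.2 FPKM in WT, 356.1 in CAST+/129-, 448.7 in CAST-/129+ and 747.2 in CAST-/129-. The sum was thus 2.60, 3.27 and 5.45 times that of WT, or 3.27, 4.0002 and 8.50 times when reads were counted in place of distinct alignments. Its make-up also differed. S100a11 and S100a10 held 41.3% and 36.7% of the sum in WT, whereas S100a6 held the largest share in CAST-/129-, at 32.1% (44.8% in reads), and S100a4 went from 1.30% to 19.6%. These shares leave out alignments on copies of S100a11 elsewhere in the genome, given below. With them counted, S100a11 was above S100a6 in CAST-/129- in distinct alignments.

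By the rule of the study, a gene counts as higher when FPKM + 4 is at least 3 times that of WT. By this rule, 2 of 7 members were higher in CAST+/129- (0.321% of all genes tested), 3 of 7 in CAST-/129+ (0.473%) and 3 of 7 in CAST-/129- (0.819%), while 0 of 7 were lower in any clone (0.305%, 0.33% and 0.511% of all genes). Among the 13826 genes with a mean of at least 1 FPKM, which hold all 7 members, 0.731%, 1.08% and 1.87% were higher. S100a4 and S100a6 passed in all 3 clones, S100a10 in CAST-/129+ alone and S100a11 in CAST-/129- alone. The calls of S100a10 and S100a11 rested on the processing, as given with each gene below. The median log2 ratio of the 7 members was 0.74, 1.09 and 1.28 in the 3 clones in the same order, against 0 over all genes tested in each. Over the genes with a mean of at least 1 FPKM it was -0.03, -0.06 and -0.08. The exact 95% interval of the ratio of counts, which covers counting error only, lay above 1 for 5 members in CAST+/129- (19% of all genes), 6 in CAST-/129+ (17.7%) and 7 in CAST-/129- (18.4%). The members were picked for being higher in these libraries, so nothing is read from these counts, and the 3 clones share the WT library.

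**Figure D1:**
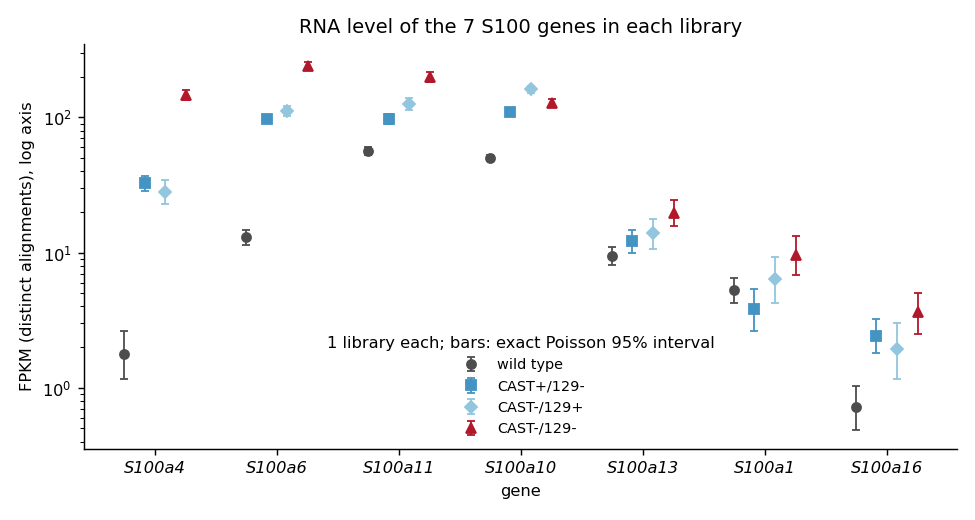
RNA level of the 7 S100 genes in FPKM on a log axis, with 1 point per library (WT, CAST+/129-, CAST-/129+, CAST-/129-) and bars for the exact Poisson 95% interval of the count. S100a4 runs from 1.78 FPKM in WT to 146.7 in CAST-/129-, while S100a10 is highest in CAST-/129+ at 161.5.

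S100a4, a cytoplasmic S100 protein that binds non-muscle myosin IIA and is also known as fibroblast-specific protein, was nearly off in WT. WT had 26 distinct alignments on S100a4, CAST+/129- had 239, CAST-/129+ had 100 and CAST-/129- had 502. Its level was 1.78, 32.7, 28.1 and 146.7 FPKM in the same order. All 3 mutant libraries were above WT, and the biallelic clone stood above both monoallelic clones. The ratio of FPKM to WT was 18.3 (12.2 to 28.6, 95% interval), 15.8 (10.2 to 25.3) and 82.3 (55.5 to 127) in CAST+/129-, CAST-/129+ and CAST-/129-. The monoallelic clones could not be told apart at this depth, with a ratio of CAST-/129+ to CAST+/129- of 0.860 (0.674 to 1.09), whereas CAST-/129- was 4.49 times CAST+/129- (3.84 to 5.26). By the size of log2 of (FPKM + 4) over WT, which was 4.70 in CAST-/129-, S100a4 had rank 3 of 31498 genes. All 3 annotated exons took part: from WT to CAST-/129- the distinct alignments went from 6 to 26 on exon 1, from 10 to 193 on exon 2 and from 10 to 283 on exon 3.

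S100a6, also called calcyclin, which binds annexins and the calcyclin-binding protein Cacybp, had the highest level of any member in CAST-/129- unless the copies of S100a11 are counted with that gene. It was at 12.99 FPKM in WT, 97.9 in CAST+/129-, 111.6 in CAST-/129+ and 240.2 in CAST-/129-, from 232, 877, 486 and 1007 distinct alignments. The libraries fell in 3 steps, with WT lowest, the monoallelic clones close together and the biallelic clone highest. The ratio to WT was 7.54 (6.52 to 8.75), 8.59 (7.33 to 10.1) and 18.5 (16.02 to 21.4). The order of the monoallelic clones was not firm, since CAST-/129+ over CAST+/129- was 1.14 (1.02 to 1.27) in distinct alignments and 0.983 in reads.

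The counting unit moved the values of these genes. The files list each distinct alignment once with the number of reads behind it. Counted in reads, S100a6 was at 12.0, 168.7, 165.9 and 528.0 FPKM and its ratio to WT was 14.02, 13.8 and 43.9. S100a4 in reads was 28.9, 24.8 and 182 times WT. The ratios in reads were the larger for both genes in every clone, and the calls by the 3-fold rule did not change for any member. With each 5′ position counted once the values were smaller: the log2 ratio of S100a6 in CAST+/129-, CAST-/129+ and CAST-/129- was 1.87, 2.15 and 2.71, against 2.58, 2.77 and 3.85 in distinct alignments. A count of positions cannot exceed the bases of a gene, so it can compress the ratios of short genes with much RNA. On the 719 bases of S100a6 it was 367 in CAST+/129- and 370 in CAST-/129-. The log2 ratio of S100a4 also moved with the value added to FPKM, from 3.73 with 10 to 5.73 with 1 in CAST-/129-. When each library was divided by its Actb level, the log2 ratio of S100a4 in CAST+/129-, CAST-/129+ and CAST-/129- was 2.04, 1.97 and 3.99 and that of S100a6 was 1.90, 2.20 and 3.12, all still past the 3-fold line. Division by Actb also moved calls over all genes tested. In CAST-/129-, 115 genes passed upward and 393 downward, against 258 and 161 without it. This division rescales every gene of a library by 1 factor, so a higher Actb level in a clone lowers all its ratios. What set the Actb level was not tested. Scaling by the median of ratios over genes gave 1.81 for S100a11 in CAST-/129- and 1.67 for S100a10 in CAST-/129+. The main values were 1.75 and 1.61.

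**Figure D2:**
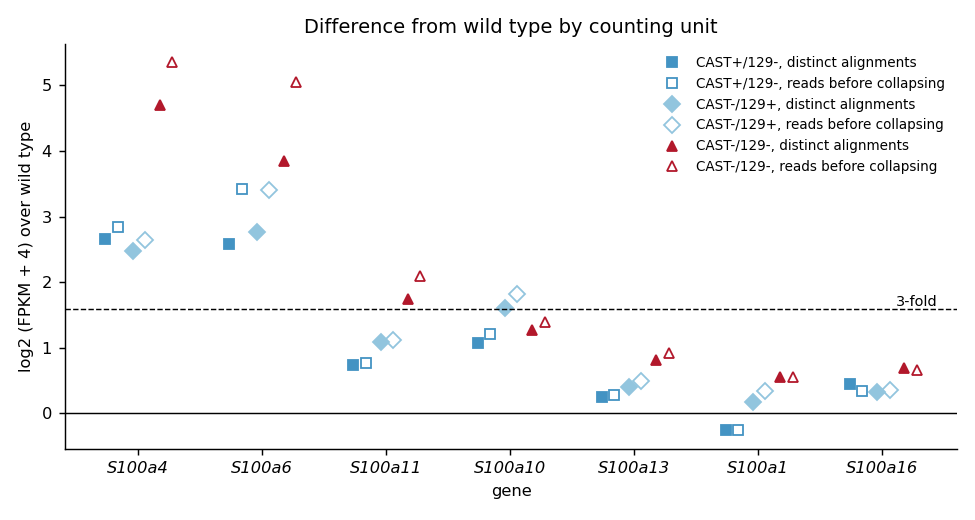
Log2 of (FPKM + 4) over WT for each S100 gene in the 3 mutant libraries, with filled symbols for distinct alignments, open symbols for reads before collapsing and a dashed line at 3-fold. Counting reads moved S100a6 in CAST-/129- from 3.85 to 5.05 and left S100a13, S100a1 and S100a16 under the line.

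S100a11 (calgizzarin), which pairs with annexin A1 and annexin A2 in membrane repair and growth control, was already expressed in WT. Its level was 56.6 FPKM in WT, 97.2 in CAST+/129-, 125.3 in CAST-/129+ and 199.7 in CAST-/129-, from 719, 619, 388 and 595 distinct alignments. Its order was WT, CAST+/129-, CAST-/129+, CAST-/129-, and the intervals of neighbours in that order did not overlap. The ratio to WT was 1.72 (1.54 to 1.91), 2.21 (1.95 to 2.51) and 3.53 (3.16 to 3.94). The spliced transcript of S100a11 has full or partial copies elsewhere in mm9, with 9 matches at 83.1% to 98.6% identity. Alignments on these copies numbered 456, 351, 206 and 300, or 63.4%, 56.7%, 53.1% and 50.4% of the count of the gene. Gm7665 on chromosome 18, the match at 98.6%, held 442 of those in WT and 288 in CAST-/129-. RNA of the gene and of its copies cannot be fully told apart, so the level of S100a11 is uncertain. With the copies added, its level in CAST-/129- was 300.4 FPKM and the ratio to WT was 1.65, 2.07 and 3.25. Its log2 ratio of 1.75 in CAST-/129- went under the 3-fold line with each 5′ position counted once (1.49) and on division by Actb (1.02). Counted in reads it was 2.09. Its 511 bases held 328 positions in WT and 317 in CAST-/129-, so counting positions once can compress its ratio. Division by Actb also took the log2 ratio of S100a11 from 0.74 to 0.055 in CAST+/129-, close to WT on that scale, and from 1.09 to 0.52 in CAST-/129+. As given above, this division moved calls over all genes and not of the members alone.

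S100a10, or p11, which unlike other S100 proteins is held in its open form without calcium and forms a tetramer with annexin A2, had a different order of libraries. It was at 50.3 FPKM in WT, 109.9 in CAST+/129-, 161.5 in CAST-/129+ and 127.8 in CAST-/129-, from 1515, 1660, 1186 and 903 distinct alignments. The highest level was in a monoallelic clone, and CAST-/129- was 0.791 times CAST-/129+ (0.725 to 0.863). The ratio to WT was 2.19 (2.04 to 2.34), 3.21 (2.97 to 3.47) and 2.54 (2.34 to 2.76). Its log2 ratio of 1.61 in CAST-/129+ was just past the 3-fold line at 1.58, and the call was lost in 6 settings, among them each 5′ position counted once (1.35) and division by Actb (1.03). Counted in reads the log2 ratio was 1.82. Division by Actb took its log2 ratio from 1.07 to 0.38 in CAST+/129- and from 1.28 to 0.56 in CAST-/129-.

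S100a13, which takes part in the release of Fgf1 and interleukin 1 alpha, had 169, 108, 60 and 82 distinct alignments in WT, CAST+/129-, CAST-/129+ and CAST-/129-. Its level was 9.51, 12.1, 13.9 and 19.7 FPKM, and only in CAST-/129- did its log2 ratio of 0.81 keep its sign when each library was divided by its Actb level, at 0.22. S100a1, a calcium sensor of cardiac and skeletal muscle, was at 5.28, 3.82, 6.42 and 9.64 FPKM from 91, 33, 27 and 39 distinct alignments. The ratio of S100a1 to WT was 0.723 (0.470 to 1.09), 1.22 (0.761 to 1.89) and 1.83 (1.22 to 2.69), so that the interval left out 1 in CAST-/129- alone, and on division by Actb the value in CAST-/129+ fell below WT and the log2 ratio in CAST-/129- went from 0.56 to 0.073. S100a16, a broadly expressed family member, was at 0.722, 2.43, 1.94 and 3.61 FPKM from 29, 49, 19 and 34 distinct alignments. Its ratio to WT was 3.37 (2.09 to 5.53), 2.69 (1.42 to 4.96) and 4.996 (2.95 to 8.50), and after adding 4 to these low levels its log2 ratio was 0.45, 0.33 and 0.69. These 3 genes had the lowest levels of the members in CAST-/129-, and none passed the 3-fold rule in any clone.

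**Figure D3:**
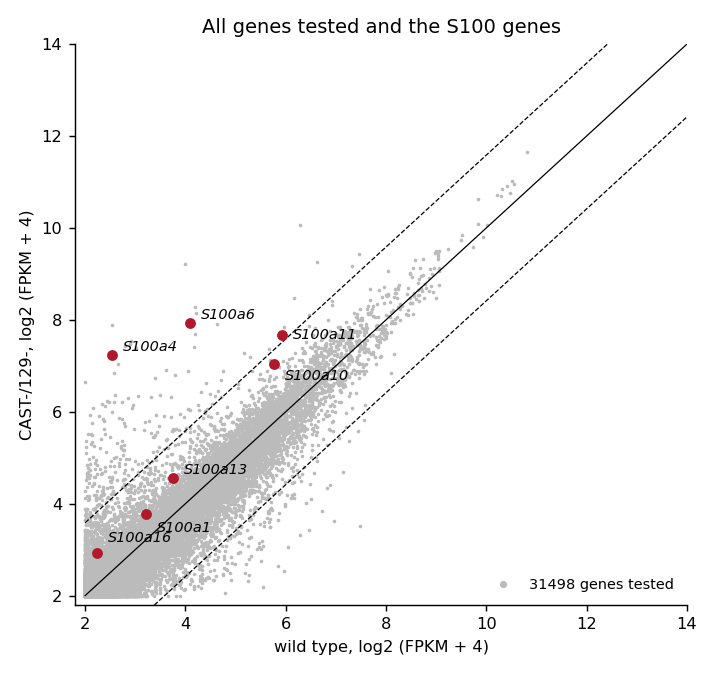
Log2 of (FPKM + 4) in WT against CAST-/129- for 31498 genes (grey) and the 7 S100 genes (red), with the line of equality and dashed lines at 3-fold. S100a4, S100a6 and S100a11 lie beyond the upper dashed line, and S100a10, S100a13, S100a1 and S100a16 lie between it and equality.

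In WT, 8 of the 10 measured genes of the rest of the S100 list were below 1 FPKM, and S100g and S100pbp were above it. Of 13 other genes listed (S100a2, S100a3, S100a5, S100a7a, S100a8, S100a9, S100a14, S100a15, S100b, S100g, S100p, S100z and S100pbp), 10 were measured and 0 passed the 3-fold rule in either direction in any clone. At 0.321%, 0.473% and 0.819% of all genes upward and 0.305%, 0.33% and 0.511% downward in the 3 clones, this says little about so few genes. S100a2, S100a15 and S100p did not enter because GENCODE M1 lists no gene of these names. S100a3 and S100a5, which lie next to S100a4 and S100a6 in the same block, were listed at 0 in WT and were at 0.241 and 1.59 FPKM in CAST-/129-. Those levels rest on 1 and 4 distinct alignments, and that of S100a3 lay under the 0.723 FPKM that 3 alignments would give. S100a14, which lies inside the first block, and S100a7a, S100a8 and S100a9, which lie beyond its end, were at 0.947, 1.39, 1.31 and 0 FPKM in CAST-/129-, from 6, 6, 3 and 0 distinct alignments. In WT they were at 0.185, 0.109, 0 and 0 FPKM, and in CAST-/129+ at 0, 0, 0 and 0.632. The ratio of CAST-/129- to WT was 5.11 (1.30 to 21.2) for S100a14 and 12.8 (2.29 to 130) for S100a7a. Its lower limit was 2.81 for S100a5 and 1.76 for S100a8, but 0.109 for S100a3 and 0 for S100a9. With 4 added to FPKM, levels this low cannot reach the 3-fold line. S100b and S100z were at 0 in WT and CAST-/129-. S100g, a vitamin D-responsive calbindin on the X chromosome, was at 8.72, 3.01, 6.88 and 1.43 FPKM in WT, CAST+/129-, CAST-/129+ and CAST-/129-. Its ratio to WT was 0.345 (0.197 to 0.573), 0.789 (0.463 to 1.28) and 0.164 (0.0438 to 0.432) in the clones in the same order, the last from 4 distinct alignments. S100pbp, whose protein binds S100P, was at 14.6, 10.6, 8.79 and 9.37 FPKM.

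Genes beside the members were chosen by position alone. Of 10 tested genes other than S100 genes that start within 100 kb of a member, 0 passed the 3-fold rule in any clone in either direction, which at 0.819% of all genes upward and 0.511% downward in CAST-/129- says little about so few genes. The 6 with at least 5 FPKM in any library had log2 ratios in CAST-/129- from -1.16 (Gm5278) to 0.11 (Ilf2, a double-stranded RNA-binding protein), with a median of -0.20. 2500003M10Rik, which starts 4.89 kb from S100a1, was at 42.5 FPKM in WT and 35.7 in CAST-/129-. Snapin, a protein of the vesicle fusion machinery, was at 14.2 and 13.4 FPKM, Ints3 at 48.8 and 42.9, and the natriuretic peptide receptor gene Npr1 at 13.7 and 7.17. Gm5278, a pseudogene, was at 13.3 and 3.72 FPKM. Among these 6, the nearest member was S100a11 for Gm5278, at 86.7 kb, and S100a1 for all others. None was nearest to S100a4, S100a6 or S100a10, so the values say little about the surroundings of those genes.

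Known binding partners of S100 proteins were measured next. Of 42 partner genes listed, 40 were measured, and 2, 3 and 4 passed the 3-fold rule upward in CAST+/129-, CAST-/129+ and CAST-/129-, with 0 downward. Over all genes tested, 0.321%, 0.473% and 0.819% passed upward and 0.305%, 0.33% and 0.511% downward. In CAST-/129- the count of 4 became 7 with 1 added to FPKM and 8 at 2-fold. The median log2 ratio of the list was 0.14, 0.08 and 0.36. Anxa2, the partner of S100a10, was at 4.31 FPKM in WT, 39.2 in CAST+/129-, 54.5 in CAST-/129+ and 77.4 in CAST-/129-. Anxa1, a partner of S100a11, was at 1.98, 24.4, 23.7 and 69.6 FPKM, so these annexins were lowest in WT and highest in the biallelic clone. The other annexins of the list passed in no clone, with log2 ratios in CAST-/129- of 0.86 for Anxa6 and 0.31 for Anxa11. Tpm1, a tropomyosin of actin filaments, was at 15.7 FPKM in WT and 81.7 in CAST-/129-, and Plat, the plasminogen activator that S100a10 helps to bind at the cell surface, was at 1.64 and 13.1. The lowest log2 ratios in CAST-/129- were -0.66 for Ryr1 and -0.43 for Ryr2, the calcium release channels to which S100a1 binds, both below 5 FPKM in all libraries.

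EF-hand genes outside the S100 family lay on both sides of WT. Of 50 listed, 44 were measured, and 1, 1 and 2 passed the rule upward in CAST+/129-, CAST-/129+ and CAST-/129-, while 1, 0 and 0 passed it downward. The shares over all genes tested were 0.321%, 0.473% and 0.819% upward and 0.305%, 0.33% and 0.511% downward. The median log2 ratio of this list was 0.02, 0.01 and 0.00, and in CAST-/129- 22 genes were higher and 19 lower than WT. Myl9, a myosin regulatory light chain of smooth muscle and non-muscle cells, was at 1.52 FPKM in WT, 28.3 and 25.6 in the monoallelic clones and 70.5 in CAST-/129-. Capn2, the large subunit of m-calpain, was at 15.2 FPKM in WT and 62.1 in CAST-/129-. Rcn1, an endoplasmic reticulum calcium-binding protein, was lower in every clone, at 76.6, 21.6, 28.8 and 33.4 FPKM, and Plcd1, a phospholipase C, had a log2 ratio of -0.69 in CAST-/129-.

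The genes whose pattern was most like that of S100a4, S100a6 and S100a11 were found by the Euclidean distance of the log2 ratios over the 3 mutant libraries, among 8197 other genes with at least 10 FPKM in any library. These 3 points all share the WT library. They are also the ratios for which the members were picked, so genes higher in the clones were bound to come out. For S100a4 they were Col1a1, Bgn, Lyz2, S100a6 and Thbs1, at distances of 0.20 to 0.95 on the log2 scale. For S100a6 they were Myl9, Anxa2, Anxa1, Nrk and Col1a1, at 0.36 to 0.77. Of these, 3 are in the partner or EF-hand lists above, which were chosen with earlier results of these data known, so nothing is read from the overlap. For S100a11 they were Hist1h2bc, Arl4c, Lgals3, Lbh and Col18a1, at 0.12 to 0.24. Col1a1, a collagen chain of fibroblasts, was at 3.48, 39.0, 38.9 and 174.4 FPKM, and thus close to S100a4 in each mutant library on the log2 scale of FPKM + 4.

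Lists of markers of other cell types were measured beside the members. The lists were chosen with earlier results of these data known. Over all genes tested, 0.321%, 0.473% and 0.819% passed the 3-fold rule upward in CAST+/129-, CAST-/129+ and CAST-/129-, and 0.305%, 0.33% and 0.511% downward. Of 16 fibroblast markers, 4, 3 and 11 passed the 3-fold rule upward in CAST+/129-, CAST-/129+ and CAST-/129-, their summed level was 306.8 FPKM in WT, 396.0, 441.0 and 1211 in the clones, and only Lum was at 0, in WT. By log2 of (FPKM + 4) over WT in CAST-/129-, the 6 highest were Acta2, Col1a1, Col3a1, Fbln2, Col1a2 and Dcn and the lowest were Fn1 and Twist1. Of 10 macrophage markers 1, 1 and 3 were upward (Lyz2, with Tyrobp and Emr1 in CAST-/129-) and Laptm5 was downward in each clone, and Laptm5 and Cd68 had the lowest values on that scale in CAST-/129-. Counted in reads, 1 macrophage marker was upward and 0 downward in CAST-/129-. Their sums were 47.6, 24.8, 31.5 and 149.6 FPKM, and Lyz2, Ptprc, Aif1 and Tyrobp were at 0 in WT and none in the clones. Of 8 measured trophectoderm markers 4, 5 and 4 were upward, with sums of 21.1, 349.8, 587.7 and 555.7 FPKM and none at 0. In CAST-/129- these were Krt18, Krt8, Hand1 and Krt7, and the lowest on that scale were Elf5 and Gata3. The trophectoderm sum was highest in CAST-/129+, while the sums of the fibroblast and macrophage lists were highest in CAST-/129-. The median level of the macrophage list was 0.0349, 1.36, 1.14 and 8.51 FPKM, and that of the fibroblast list was 2.52, 6.51, 7.01 and 43.7. Both medians were lowest in WT and highest in CAST-/129-. Of 10 primitive endoderm markers 0 were upward and 2 downward in each clone (Gata6 and Lama1 in CAST-/129-), with sums of 446.1 FPKM in WT and 223.0, 299.98 and 448.6 in the clones and none at 0. The sum of this list was highest in CAST-/129-, but its median level was highest in WT, at 32.7 FPKM against 8.24, 16.7 and 11.1. In CAST-/129- 4 of these markers were above and 6 below WT. The part of other cells in the S100 levels was not tested.

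Promoter marks were measured in unedited cells only and were not used to choose the members. The value is the number of distinct ChIP-seq alignments whose 5′ end lay within 2 kb of the gene start, over the mean of chromosome 3 in the same library, with no input library used here. For scale, the start of Sox2 had 39.1 for H3K4me3 and 145.4 for H3K27ac in F123 cells and 57.2 for H3K27ac in J1 cells. At least 5 times the mean was reached by 1 of 7 members for H3K4me3 (48.1% of 22350 protein-coding genes), by 2 for H3K27ac in F123 (31.9%) and by 1 for H3K27ac in J1 (27.9%). These counts depended on the window, with 4, 4 and 2 members at 1 kb and 0, 1 and 3 at 5 kb, and the single H3K4me3 call, that of S100a10, was also lost with reads or with the mean over autosomes. The H3K27ac library of F123 was shallow, with 1576875 distinct alignments and an expected 1.91 in a window, so its intervals are wide.

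S100a10 was at 5.08 (3.76 to 6.71) for H3K4me3, 15.2 (10.2 to 21.8) for H3K27ac in F123 and 11.1 (9.10 to 13.4) for H3K27ac in J1. S100a11 was at 11.5 (7.21 to 17.4) for H3K27ac in F123, and had 3.11 (2.10 to 4.44) for H3K4me3 and 3.88 (2.73 to 5.35) for H3K27ac in J1. Among 1305 protein-coding genes with at least 50 FPKM in WT, the group to which both belong, H3K4me3 had a median of 16.1 and quartiles of 10.9 and 22.3, so that both S100 genes lay under the lower quartile. Their H3K27ac in F123 lay inside the quartiles of that group, which were 6.80 and 33.5. In J1 the quartiles of H3K27ac were 4.82 and 16.6, with S100a10 inside them and S100a11 under the lower one. The group was set by RNA of F123 cells, also for J1. S100a10, at 50.3 FPKM in WT (47.8 to 52.9), lay at its edge. Against genes with 10 to 50 FPKM, the H3K27ac of S100a10 in J1 lay above the upper quartile of 10.7.

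S100a6, with 12.99 FPKM in WT, had 4.46 (3.22 to 6.002) for H3K4me3, 3.14 (1.15 to 6.83) for H3K27ac in F123 and 3.99 (2.82 to 5.47) in J1. S100a4 had 1.14 (0.569 to 2.04) for H3K4me3, an interval that holds the chromosome mean, and 1.36 (0.726 to 2.33) for H3K27ac in J1, while H3K27ac in F123 was 4.71 (2.15 to 8.93) from 9 alignments and 8.43 when reads were counted. The gene with the highest ratio in the biallelic clone was thus one whose H3K4me3 did not stand clear of the chromosome mean in unedited cells, and the marks of the mutant clones were not analysed here. S100a13 and S100a1, which share a window, had 4.56 (3.31 to 6.12) for H3K4me3, 2.09 (0.570 to 5.35) for H3K27ac in F123 and 4.51 and 4.61 in J1. S100a16 had 0.829 (0.358 to 1.63), 1.05 (0.127 to 3.78) and 2.52 (1.61 to 3.75) for the 3 libraries in the same order, and its H3K4me3 interval, from 8 alignments, overlapped that of S100a4, from 11.

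**Figure D4:**
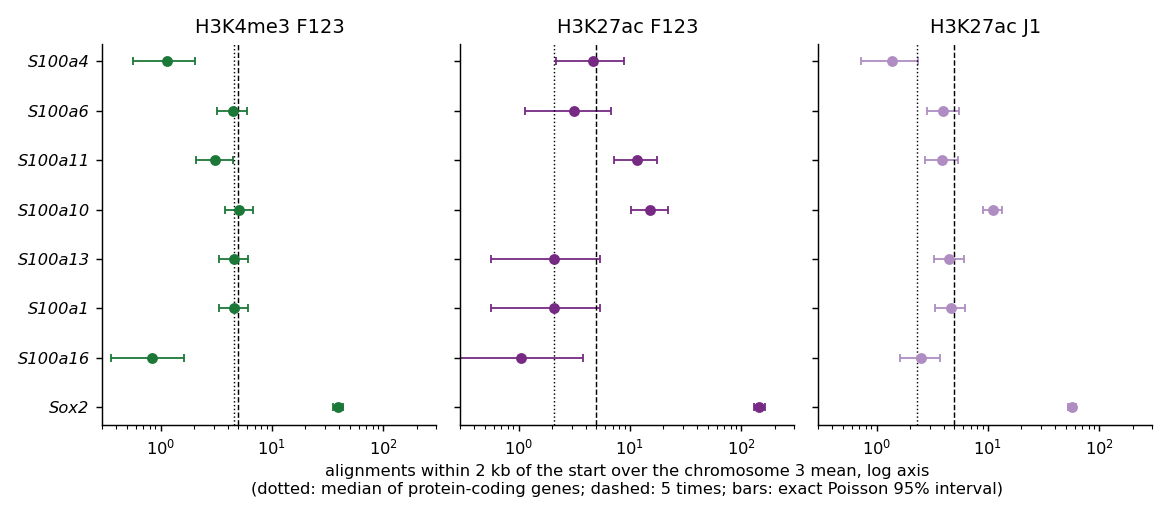
Distinct ChIP-seq alignments within 2 kb of the start of each S100 gene and of Sox2 over the chromosome 3 mean, on a log axis, in unedited F123 (H3K4me3, H3K27ac) and J1 cells (H3K27ac), with exact Poisson 95% intervals, a dotted line at the median of protein-coding genes and a dashed line at 5. S100a10 and S100a11 stand out for H3K27ac in F123 cells at 15.2 and 11.5, and the H3K4me3 intervals of S100a4 and S100a16 hold 1.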

How the data were processed

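RNA-seq (4 libraries) and ChIP-seq (3 libraries) alignments were used as deposited. The authors aligned polyA+ stranded RNA reads with Novoalign and USeq and ChIP reads with Bowtie, both to mm9, and deposited 1 line per distinct alignment with the count of reads behind it. Tool versions are not given in the sources used here.

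Alignments were assigned by midpoint to exonic bases of 1 gene on the transcript strand (opposite to the line strand) for genes with at least 200 such bases. Adding 4 to FPKM and the 3-fold rule follow the study, while FPKM was computed anew from these counts. Mates and spliced segments are separate lines, and 21.2% to 25.6% of RNA lines had a twin of equal strand and length shifted by 2 bases, so the exact Poisson and Clopper-Pearson 95% intervals cover counting error only and are too narrow. With 1 library per condition no p-value was computed. Members and lists were chosen with earlier results of these data known. The text names all members, every other S100 gene, and for each other list the genes past 3-fold in CAST-/129- (at most 6) and the 2 lowest. Neighbours were named at 5 FPKM or more (the nearest 8). Copies were sought with blastn 2.17.0. Counting used Python 3.11.15, numpy 2.4.6 and scipy 1.17.1, and was tested on simulated data.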

Additional observations from a re-analysis of the deposited data

Results flagged for a closer look

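S100a1 lay on different sides of WT in the monoallelic clones: its level was 5.28 FPKM in WT, 3.82 in CAST+/129- and 6.42 in CAST-/129+, so that CAST-/129+ was 1.68 times CAST+/129- (0.973 to 2.89, exact 95% interval of the ratio of counts). Each clone was 1 library with 27 or 33 distinct alignments on the gene, both intervals against WT held 1, and the difference between the clones was not tested.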

How the results depend on the processing

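Each choice was changed singly. The number of members past the rule stayed within 2 to 4 in every clone and setting, S100a4 and S100a6 passed in all of them, and 0 called ratios changed sign. S100a10 lost its call in CAST-/129+ with each 5′ position counted once, all alignments as library size, 10 added to FPKM, a 5-fold rule, division by Actb or shifted twins counted once. S100a11 lost its call in CAST-/129- with positions counted once, a 5-fold rule or division by Actb. Division by Actb, counting twins once and adding the copies of S100a11 were chosen after seeing the data. Division by Actb lowered all members and turned the sign of S100a13 in both monoallelic clones and of S100a1 in CAST-/129+. Of single log2 ratios of members, 231 stayed within their counting interval and 45 did not. With the counting unit S100a6 moved to 2.71 with positions counted once and 5.05 in reads, from 3.85 in CAST-/129-. The S100 partners past the rule in CAST-/129- numbered 4, but 7 with 1 added to FPKM and 8 at 2-fold. Members over 5 times the mean for H3K4me3 numbered 1, but 4 with a window of 1 kb and 0 with 5 kb, with reads or with the mean over autosomes. For H3K27ac in F123 they numbered 2, but 4 with 1 kb, 3 with reads and 1 with 5 kb, and for H3K27ac in J1 they numbered 1, but 2 with 1 kb, 3 with 5 kb and 2 with reads. Division by Actb rescales all genes of a library by 1 factor, and a count of positions cannot exceed the bases of the gene. Beyond that, the cause of these moves was not tested. The fewest WT alignments behind a member were the 26 of S100a4 and the 29 of S100a16. No paired analysis was possible because each genotype had 1 library.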

Other observations

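The transcripts of the members had a few features that belong in no comparison. Introns of all 7 genes held 0 to 2 sense alignments in every library, also where S100a4 and S100a6 were highest. Annotated exon 2 of S100a10 (chr3:93364649-93364765, 117 bases) held 0 alignments in all 4 libraries, while exon 1 held 241 and exon 4 held 990 in WT. The first exon of S100a6 held 74 alignments in CAST-/129-, of which 2 started in its first 200 bases. The FPKM of both genes are thus divided by a length that holds bases with little or no RNA here, which lowers their level by the same factor in every library.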
